A study of Homo sapiens with 4 samples.

Results

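The FKBP immunophilins are peptidyl-prolyl isomerases that bind the drugs FK506 and rapamycin. Considered here were 10 of their genes. *FKBP9*, *FKBP7*, *FKBP10*, *FKBP11*, *FKBP14* and *FKBP2* encode members of the endoplasmic reticulum (ER), and *FKBP9L*, a copy of *FKBP9*, was grouped with them. The products of *FKBP1A*, *FKBP4* and *FKBP5* are cytosolic. A probe was taken as a member where its gene symbol on the array equalled one of these names, which gave 11 probes of the 33096 gene probes on each array, 7 for the ER-resident and 4 for the cytosolic genes. One of the 7 names *FKBP9* and *FKBP9L* together and cannot tell these near-identical sequences apart. Of the 11 probes, 10 passed the filter on dim signals, as did 21256 probes in all. The genes were picked with their difference between the groups in view, so their changes are described below without a test.

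LN229, an established human glioblastoma line grown in DMEM, was transfected with siRNA against *SOX2* (SOX2 knockdown, 2 arrays) or with a non-targeting siRNA (mock knockdown, 2 arrays). The question was which transcripts depend on *SOX2*, an HMG-box transcription factor of stem cells. The study's methods describe the replicates as separate transfections, and list a pair of siRNAs against *SOX2* without saying which one each array received. All the RNA is from 1 cell line in transient knockdown, so the data hold no second line and no rescue.

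Proline peptide bonds exist in a cis and a trans form, and their interconversion can limit the rate at which a chain folds. FKBPs catalyse this step. Those of the ER act on proteins that are to be secreted, and several are known for their part in procollagen folding. In the cytosol, *FKBP1A* encodes the main intracellular receptor of FK506 and rapamycin. *FKBP4* and *FKBP5* encode co-chaperones that bind HSP90 in its complexes with steroid hormone receptors.

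*FKBP9* and *FKBP7*, whose probes passed the study's 2-fold cutoff, each have a promoter window in the RefSeq table (GRCh38.p14), and both are printed here because these probes had the lowest log2 changes of the family. Each window runs from 250 bases before to 50 bases after the start of the transcript, 5′ to 3′ on the strand of the gene. Capitals mark the parts of the ER stress element, a binding sequence of unfolded protein response factors, and the short cores bound by SOX proteins, all spelled out below, on either strand. The *FKBP9* window lies at chr7:32957190-32957489 on the plus strand and the *FKBP7* window at chr2:178478551-178478850 on the minus strand.
FKBP9: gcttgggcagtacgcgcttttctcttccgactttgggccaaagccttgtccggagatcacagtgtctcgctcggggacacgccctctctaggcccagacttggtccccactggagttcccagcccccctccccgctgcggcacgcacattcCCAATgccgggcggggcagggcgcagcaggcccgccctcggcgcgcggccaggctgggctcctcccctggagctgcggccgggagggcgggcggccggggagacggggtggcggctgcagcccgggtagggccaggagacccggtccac
FKBP7: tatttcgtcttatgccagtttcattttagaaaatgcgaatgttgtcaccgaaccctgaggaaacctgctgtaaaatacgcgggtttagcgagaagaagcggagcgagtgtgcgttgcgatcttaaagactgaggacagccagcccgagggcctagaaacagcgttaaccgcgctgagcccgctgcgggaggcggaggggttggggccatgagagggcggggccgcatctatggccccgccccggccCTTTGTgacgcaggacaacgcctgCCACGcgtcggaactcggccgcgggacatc

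The window of *FKBP9* held 72.7% G and C and a single marked run, CCAAT at position -99 from the start. The window of *FKBP7* held 59.7% G and C, with CCACG at position 21 after the start and ACAAAG at position -4 on the other strand. The ER stress element, spelled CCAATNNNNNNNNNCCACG and searched on both strands, was found in 0.0769% of the 35116 windows of the table and in 0 of the 12 windows of the 6 listed members (*FKBP9*, *FKBP7*, *FKBP2*, *FKBP11*, *FKBP1A* and *FKBP5*). Its first letters CCAAT occurred in 34.6% of all windows and in 4 of the 12 (of *FKBP9*, *FKBP5* and *FKBP2*). Its last letters CCACG occurred in 38.1% and in 9 of the 12 (of *FKBP7*, *FKBP2*, *FKBP11*, *FKBP1A* and *FKBP5*). *FKBP2* has several windows, some of which overlap, and more than 1 of them held each run. The 12 windows are thus not independent, and no excess is read from these counts. Of the short cores bound by SOX proteins, ACAAT was in 27.4% of all windows and in 2 of the 12 (1 each of *FKBP11* and *FKBP5*), and ACAAAG in 16.1% and 2 of the 12 (*FKBP7* and 1 of *FKBP5*). Runs this short occur often in any sequence, and overlaps between the full element and its parts were counted under each. *FKBP9L*, *FKBP10*, *FKBP14* and *FKBP4* have no window in the table.

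Signals are given as multiples of the 75th percentile of the probes of an array, called scaled signals below, and a change is the mean log2 value of SOX2 knockdown minus that of mock knockdown, with the standard error (SE) of limma. The *SOX2* probe had scaled signals of 0.467 and 0.701 in mock knockdown and of 0.209 and 0.149 in SOX2 knockdown. All 4 arrays were of like depth, with signal-to-noise ratios (S/N) over 3 for 63.5% to 68.9% of the probes. The S/N of the *SOX2* probe was 5.17 and 13.6 in mock knockdown. In SOX2 knockdown it was 3.17 and 3.06, just over 3, and the change of this probe was -1.69 (SE 0.28). Pearson's r across probes was 0.986 between the mock arrays, 0.991 between the knockdown arrays and 0.977 to 0.984 across groups. By the median absolute log2 difference, mock knockdown 1 was nearer to SOX2 knockdown 2 (0.207) than to mock knockdown 2 (0.223). Fewer probes differed over 2-fold in that pair across groups (765) than between the mock arrays (788). More probes differed over 2-fold between the 2 mock arrays (788) than between the group means (554), so a 2-fold difference between single arrays is not rare here. Of 8 markers of glioma and mesenchymal cells, 7 had S/N over 3 on all arrays, and of 8 markers of colon epithelium, checked because one label names the colon line SW620, 1 did.

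The probes of *FKBP9*/*FKBP9L*, *FKBP7* and *FKBP10* were lower after SOX2 knockdown, and the cytosolic members stayed close to their mock levels. *FKBP14* had probes in both directions, and *FKBP2* hardly changed. Of the 6 ER-resident probes compared, 5 were lower and 1 was higher. Their median log2 change was -0.79, with a range from -1.94 to 0.43. The 5 lower probes include that of *FKBP2* at -0.08 (SE 0.20), whose groups overlapped. The 4 cytosolic probes had a median of 0.10 and a range from -0.19 to 0.26, with 1 lower and 3 higher. The 3 higher probes include that of *FKBP5* at 0.00 (SE 0.13). Over all probes compared the median was -0.00, the 5th and 95th percentiles were -0.60 and 0.62, and 50.2% were lower. The probes of *FKBP9* with *FKBP9L* and of *FKBP7* were over 2-fold lower by the replicate means, which makes 2 of 10 members where 1.04% of all probes compared were over 2-fold lower. No member was over 2-fold higher, where 1.57% of all probes were, and 2.61% of all probes were over 2-fold in either direction. Since the members were chosen on this contrast, nothing is read from that excess. Measured from the mock mean of each probe, the median ER-resident deviation on the log2 scale was -0.57 and -0.88 on the knockdown arrays, and the median cytosolic deviation was 0.07 and 0.10.

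**Figure D1:**
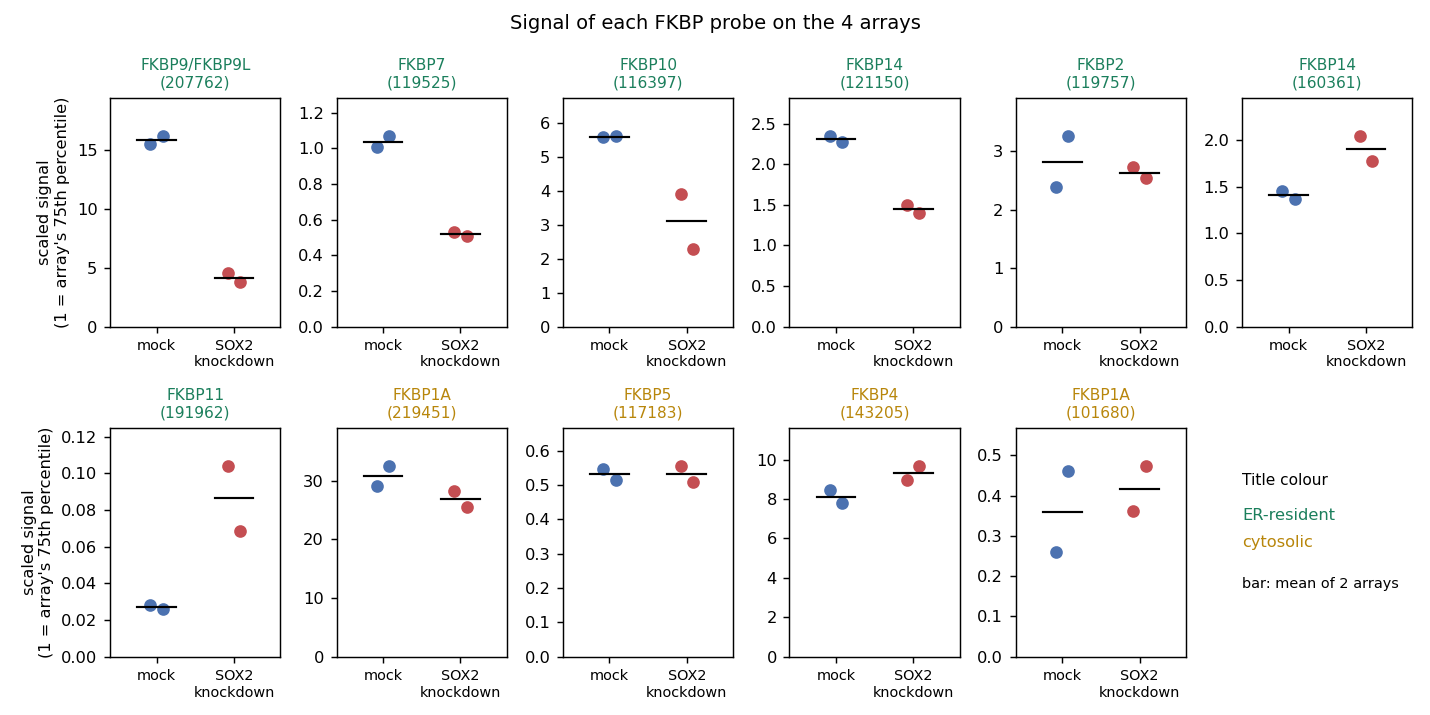
Scaled signal (linear, 1 = the 75th percentile of the array) of each of the 11 *FKBP* probes on the 2 mock and the 2 SOX2 knockdown arrays, with a bar at the mean of each group and a y axis per probe. The knockdown points of *FKBP9*/*FKBP9L* lie at 4.52 and 3.78 against 15.5 and 16.2 in mock knockdown, while the points of *FKBP2*, *FKBP5* and the second *FKBP1A* probe overlap between the groups.

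The ER-resident probe with the lowest change was that of *FKBP9* and *FKBP9L* (Celera gene hCG1736513.1). *FKBP9* encodes an ER isomerase with several FKBP domains and calcium-binding EF hands, and *FKBP9L* is a partial copy of it. The probe read 15.5 and 16.2 in mock knockdown and 4.52 and 3.78 in SOX2 knockdown. Both knockdown arrays were far below both mock arrays, and the gap between groups was many times the spread within them. The means were 15.8 ± 0.493 and 4.15 ± 0.524 (SD, n = 2), a 3.82-fold lower signal, or a log2 change of -1.94 (SE 0.15). This was the 4th lowest change of the 21256 probes compared. S/N was between 84.8 and 115 on the 4 arrays, and leaving out any 1 array gave changes from -2.07 to -1.81.

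*FKBP7* (hCG43239.2) encodes a smaller ER isomerase with EF hands that is known to bind the chaperone BiP. Its scaled signals were 1.01 and 1.07 in mock knockdown and 0.528 and 0.508 in SOX2 knockdown. The groups did not overlap, and the arrays of each group lay close together. The log2 change was -1.001 (SE 0.13), and the means of 1.04 ± 0.0436 and 0.518 ± 0.0141 (SD, n = 2) gave a 2.001-fold lower signal, at the very edge of the 2-fold cutoff. The ratio of knockdown to mock was 0.4997, and it was 0.5005, outside the cutoff, when probes were averaged by gene ID and the arrays scaled on those averages, and the change was -0.65 when the background of the raw readings was modelled. The rank of *FKBP7* among all probes, counted from the lowest change, was 223.

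*FKBP10* (hCG1771525.1), next below the cutoff at 1.80-fold lower, encodes a collagen chaperone of the ER in which mutations cause a brittle bone disease. Its signals were 5.58 and 5.61 in mock knockdown and 3.91 and 2.29 in SOX2 knockdown. Both knockdown arrays were below the mock arrays, but they differed from each other by 0.77 on the log2 scale. The means were 5.60 ± 0.0231 and 3.10 ± 1.15 (SD, n = 2), with a change of -0.90 (SE 0.29), the largest SE of the ER-resident probes. Taking the knockdown arrays one at a time, the change was -0.52 with replicate 1 alone and -1.29 with replicate 2 alone.

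*FKBP14* (hCG38314.2) encodes an ER isomerase that acts on procollagen and is mutated in a form of Ehlers-Danlos syndrome, and it has 2 probes that went opposite ways. Probe 121150 read 2.35 and 2.27 in mock knockdown and 1.49 and 1.40 in SOX2 knockdown, a change of -0.68 (SE 0.13). Probe 160361 read 1.45 and 1.37 in mock knockdown and 2.04 and 1.77 in SOX2 knockdown, a change of 0.43 (SE 0.14). In neither probe did the groups overlap, and both cite the same RefSeq transcript in the files, so the direction of *FKBP14* is unsettled. Averaged by gene ID, as the study's methods do, the signals of the pair gave a change of -0.15 (SE 0.13). The cause of the disagreement was not tested.

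*FKBP2* (hCG21364.2) encodes a small, broadly expressed ER isomerase. Its signals were 2.38 and 3.26 in mock knockdown and 2.73 and 2.53 in SOX2 knockdown. The knockdown arrays lay between the mock arrays, and the change of -0.08 (SE 0.20) was smaller than its error. Without mock knockdown replicate 2 the change was 0.14. *FKBP11* (hCG1642966.3), a member known from secretory cells, was not well above background on any array, at listed signals of 0.0281 and 0.0262 in mock knockdown and 0.104 and 0.0688 in SOX2 knockdown. Its S/N lay between -0.85 and 0.48, the deposited signal equalled its own error on the 4 arrays, and no fold is given.

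Among the cytosolic members, *FKBP1A* (hCG2019616.1) had 2 probes. Probe 219451 read 29.1 and 32.5 in mock knockdown and 28.3 and 25.5 in SOX2 knockdown. The knockdown arrays were just below the mock arrays, with a change of -0.19 (SE 0.14). Probe 101680 read 0.259 and 0.461 in mock knockdown and 0.362 and 0.473 in SOX2 knockdown, so that the groups overlapped. Its change was 0.26 (SE 0.33), and it was -0.15 without mock knockdown replicate 1. The average of both by gene ID had a change of -0.19 (SE 0.14).

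*FKBP4* (hCG22802.2) and *FKBP5* (hCG17659.3) encode the HSP90 co-chaperones with opposing effects on the glucocorticoid receptor, and *FKBP5* is itself induced by that receptor. *FKBP4* read 8.46 and 7.79 in mock knockdown and 8.98 and 9.66 in SOX2 knockdown. Both knockdown arrays were higher, by a log2 change of 0.20 (SE 0.13). *FKBP5* read 0.546 and 0.516 in mock knockdown and 0.555 and 0.510 in SOX2 knockdown. Its groups overlapped, and the change was 0.00 (SE 0.13).

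Counted by separation, the knockdown signals were both lower than either mock signal for 4 of the 6 ER-resident and 1 of the 4 cytosolic probes, where 25.8% of all probes compared were. They were both higher for 1 probe of each kind, where 21.2% of all probes were, so that the groups did not overlap for 7 of 10 members and for 47% of all probes. The remaining 1 ER-resident and 2 cytosolic probes overlapped.

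**Figure D2:**
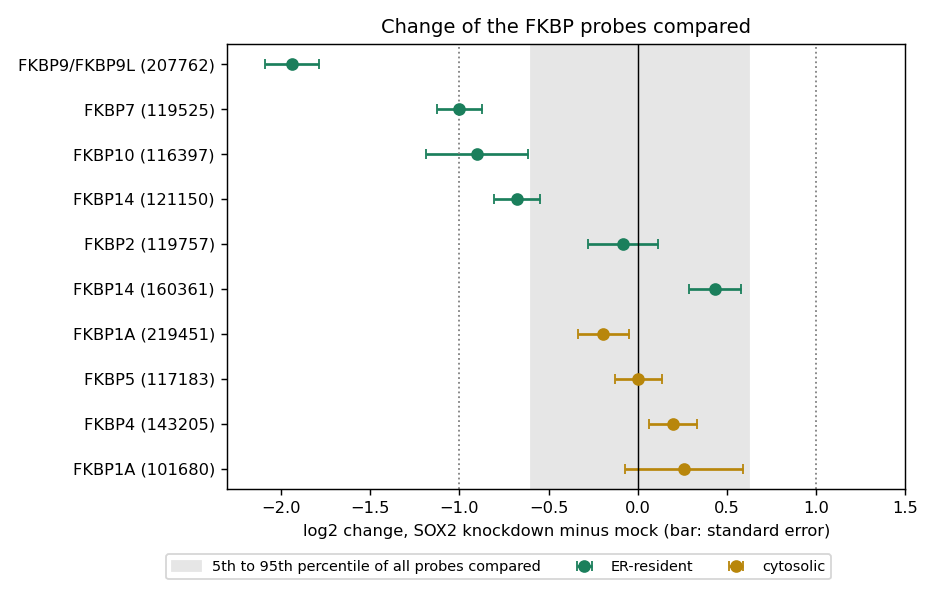
Log2 change (SOX2 knockdown minus mock knockdown) of the 10 *FKBP* probes compared, with bars of 1 SE from limma (2 arrays per group), dotted lines at 2-fold, and a grey band from the 5th to the 95th percentile (-0.60 to 0.62) of the 21256 probes compared. Of the ER-resident probes, 4 lie to the left of the band, and the 4 cytosolic probes lie inside it.

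Each member was also placed beside genes with related functions, in lists chosen with earlier results of these data known. In limma's fit with Benjamini-Hochberg adjustment, 0 of the 21256 probes (0%) had an adjusted p under 0.05, and 3626 (17.1%) had an unadjusted p under 0.05. The count of adjusted calls differed between scalings. It was 826 when arrays were divided by their median, 776 with no further scaling and 758 in the table processed by the authors. Under each of these settings all member probes had the same SE (0.288, 0.291 and 0.288 in turn). With the 75th percentile scaling the SE of the members ran from 0.127 to 0.331. Those calls thus did not weigh each probe's own replicate spread and acted much like a fold cutoff. The adjusted p-values below are those of the 75th percentile scaling, in which no probe passed.

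Of the remaining FKBP-type genes, 5 of 8 probes were compared, 2 of them higher and 3 lower, with a median change of -0.15 where all probes had -0.00. *FKBP3*, a nuclear FKBP that binds rapamycin, read 7.02 and 7.52 in mock knockdown and 4.10 and 3.69 in SOX2 knockdown. Its groups were well apart, and its change of -0.90 (SE 0.14, adjusted p = 0.106) was close to that of *FKBP10* although its product is not in the ER. *FKBPL*, a divergent member that binds HSP90, was at 0.353 and 0.423 in mock knockdown and at 0.616 and 0.539 in SOX2 knockdown, a change of 0.58 (SE 0.16, adjusted p = 0.210).

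The cyclophilins are the other large family of prolyl isomerases, and bind cyclosporin. Both ER cyclophilins were lower, *PPIB*, a partner of the collagen prolyl 3-hydroxylase complex, by -0.42 (SE 0.13, adjusted p = 0.223) and *PPIC* by -0.24 (SE 0.13, adjusted p = 0.454). Of the 21 probes compared for cyclophilins outside the ER and parvulins, 11 were higher and 10 lower, with a median of 0.02. *PPIF*, the cyclophilin of mitochondria, had a change of 0.74 (SE 0.12, adjusted p = 0.117), and the parvulin gene *PIN4*, at signals under 0.1, of -0.47 (SE 0.20, adjusted p = 0.339).

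Genes for folding and modifying collagen in the ER were nearly all lower, each by a modest amount. Of 16 probes compared, 15 were lower and 1 higher, with a median change of -0.35, where 50.2% of all probes were lower. No probe was over 2-fold, and 5 of 16 had an unadjusted limma p under 0.05, all of them lower, where 17.1% of all probes did. Both probes of *CRTAP*, the helper of prolyl 3-hydroxylase, stood at the low end of the list, with changes of -0.59 (SE 0.13, adjusted p = 0.155) and -0.51 (SE 0.13, adjusted p = 0.185). Chosen after their values were seen, *SERPINH1*, the collagen chaperone, had a change of -0.34 (SE 0.14) and *P4HB*, the shared subunit of prolyl 4-hydroxylase, of -0.35 (SE 0.17). The changes of *FKBP9*, *FKBP7*, *FKBP10* and the first *FKBP14* probe were all lower than that of any probe in this list. Those of *FKBP2* (-0.08) and the second *FKBP14* probe (0.43) were not. Since the members were chosen on this contrast, nothing is read from this order.

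For the general ER chaperones, 16 of 22 probes were lower and 6 higher, with a median of -0.12. *XBP1*, a transcription factor of the unfolded protein response, read 6.66 and 5.64 in mock knockdown and 13.9 and 13.6 in SOX2 knockdown. It was over 2-fold higher (change 1.17, SE 0.15, adjusted p = 0.0962), the opposite direction from the ER-resident *FKBP* probes that were over 2-fold. *HSPA5*, which encodes BiP, the partner of *FKBP7*, was named after its value was seen and had a change of 0.21 (SE 0.13).

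**Figure D3:**
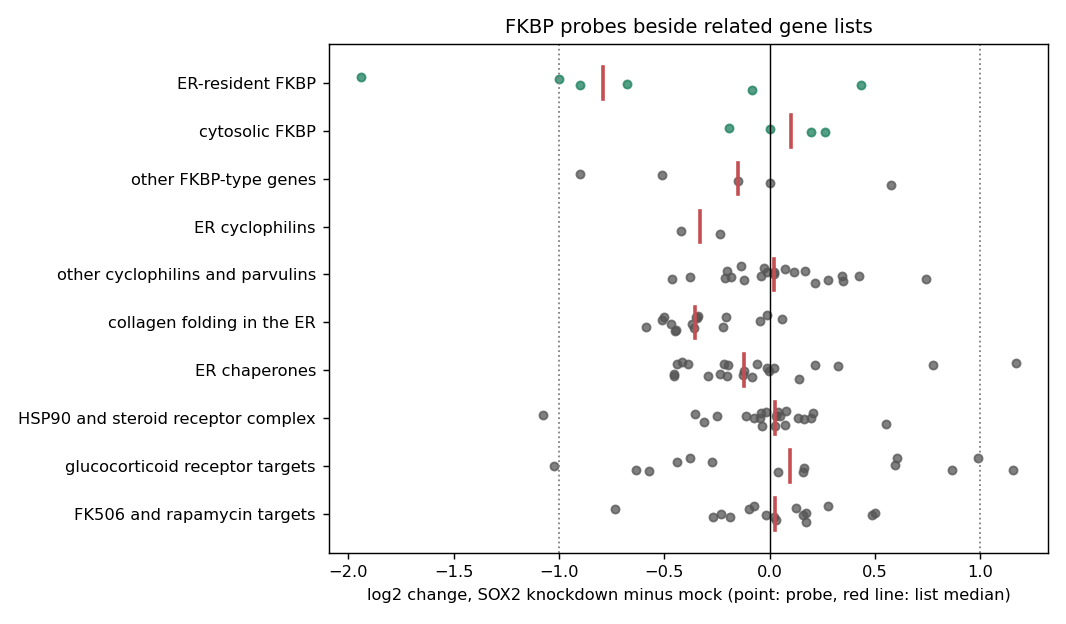
Log2 change (SOX2 knockdown minus mock knockdown) of every probe compared in the *FKBP* groups and the 8 lists of related function (not the cell type markers or *SOX2*), 1 point per probe, with a red line at each list's median and dotted lines at 2-fold. The ER-resident *FKBP* median of -0.79 lies furthest left of the medians plotted, followed by collagen folding at -0.35 and ER cyclophilins at -0.33. The cytosolic *FKBP* median lies at 0.10. The *FKBP* members were chosen on this contrast.

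The partners of the cytosolic members varied around 0. In the HSP90 and steroid receptor list 11 of 21 probes were higher and 10 lower, with a median of 0.03. *NR3C2*, the mineralocorticoid receptor gene, was not well above background on the knockdown arrays (S/N 2.68 and 1.47), so no fold is given. Its scaled signals were 0.0693 and 0.0727 in mock knockdown and 0.0519 and 0.0218 in SOX2 knockdown. The glucocorticoid receptor gene *NR3C1* had a change of 0.55 (SE 0.12, adjusted p = 0.159) in one probe and of -0.04 (SE 0.26) in the other. Among the targets of FK506 and rapamycin and partners of *FKBP1A*, 9 of 16 probes were higher and 7 lower, with a median of 0.03. The calcium channel gene *ITPR2* had a change of -0.74 (SE 0.13, adjusted p = 0.124). *RPS6KB1*, the S6 kinase downstream of mTOR, had a change of 0.50 (SE 0.18, adjusted p = 0.277) in one of its probes. Its other probes had changes of 0.48 (SE 0.13, adjusted p = 0.202) and 0.17 (SE 0.14, adjusted p = 0.637).

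Genes known to respond to the glucocorticoid receptor, as *FKBP5* does, were more spread out. Of 14 probes compared, 8 were higher and 6 lower, with a median of 0.10. In this list 9 of 14 had an unadjusted limma p under 0.05, 4 higher and 5 lower, where 17.1% of all probes did. Glutamine synthetase (*GLUL*) read 4.05 and 4.54 in mock knockdown and 2.28 and 1.96 in SOX2 knockdown, over 2-fold lower (change -1.02, SE 0.15, adjusted p = 0.106). *CRISPLD2*, a secreted protein gene, read 0.0941 and 0.0610 in mock knockdown and 0.166 and 0.171 in SOX2 knockdown, over 2-fold higher (change 1.15, SE 0.24, adjusted p = 0.145). *FKBP5* lay between them at 0.00.

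The probes whose 4 log2 values, centred on their mean, lay nearest to those of *FKBP9*/*FKBP9L* and *FKBP7* were found among 15478 and 15477 probes that carry a single gene symbol and had S/N over 3 on all arrays. Nearest to *FKBP9*/*FKBP9L* was *PLSCR4*, a phospholipid scramblase gene, at a root mean square distance of 0.0801 log2 units. It read 0.409 and 0.395 in mock knockdown and 0.123 and 0.107 in SOX2 knockdown, a change of -1.81 (SE 0.14). *LOC121838* (distance 0.143, change -1.91, SE 0.25) and the carboxypeptidase gene *CPVL* (distance 0.150, change -1.78, SE 0.14) came next. The signals of *LOC121838* were low, at 0.0974 and 0.0916 in mock knockdown and 0.0312 and 0.0201 in SOX2 knockdown. Nearest to *FKBP7* were *TM4SF1*, a tetraspan membrane protein gene, at 0.0162, *CTHRC1*, a secreted collagen triple helix repeat protein gene, at 0.0277, and *LIPA*, the lysosomal acid lipase gene, at 0.0308. Their changes were -1.03, -1.04 and -1.04 (SE 0.13, 0.12 and 0.13). With 4 arrays in 2 groups this likeness mostly measures an equal group difference.

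The nearest protein-coding neighbours of the members in the RefSeq gene order were read for comparison, a choice made after the values of the members were seen. Of 19 neighbour probes compared, 9 were higher and 10 lower, and 1 was over 2-fold, where 2.61% of all probes were. An unadjusted limma p under 0.05 was found for 2 of the 19 and for 17.1% of all probes. Beside *FKBP9*, *KBTBD2* had a change of -0.01 (SE 0.14) and *NT5C3A* of 0.26 (SE 0.14). Beside *FKBP7*, the 2 probes of *PLEKHA3* had changes of 0.08 (SE 0.13) and 0.14 (SE 0.17). Beside *FKBP10* stood *P3H4*, which itself serves collagen modification, with a change of -0.35 (SE 0.14, adjusted p = 0.335). The probe over 2-fold was that of *TULP1*, next to *FKBP5*, at signals of 0.0429 and 0.0349 in mock knockdown and 0.177 and 0.0688 in SOX2 knockdown (change 1.51, SE 0.48, adjusted p = 0.238), with S/N over 3 on 3 of the 4 arrays.

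The direction of the 4 lowest *FKBP* changes was the same under every alternative run. Across the alternatives the change of *FKBP9*/*FKBP9L* lay between -2.07 and -1.81, that of *FKBP7* between -1.04 and -0.65, that of *FKBP10* between -1.29 and -0.52 and that of the first *FKBP14* probe between -0.72 and -0.63. *FKBP4* stayed between 0.14 and 0.26, and *FKBP5* crossed 0 within -0.06 and 0.06.

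**Figure D4:**
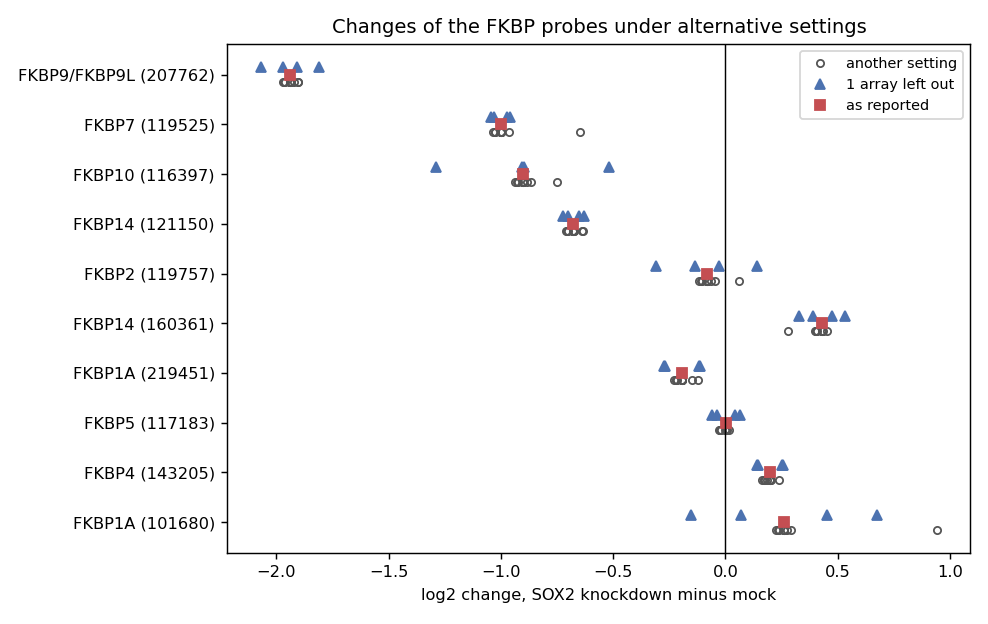
Log2 change (SOX2 knockdown minus mock knockdown) of each *FKBP* probe as reported (red squares), under another setting (open circles) and with 1 array left out (blue triangles). *FKBP9*/*FKBP9L*, *FKBP7*, *FKBP10* and *FKBP14* probe 121150 stay below 0 throughout, while *FKBP2*, *FKBP5* and *FKBP1A* probe 101680 have values on both sides of 0.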

How the data were processed

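RNA of the 4 samples was biotin-labelled and hybridised to 1-colour Applied Biosystems Human Genome Survey arrays, read by chemiluminescence. The deposited scanner files hold linear intensity columns that the array software normalized within each array, a signal-to-noise score and flag scores, whose software version and flag meanings are not given in the sources used here. The table processed by the authors holds a linear ratio per probe, the scanner signal times a constant per array divided by a median of the probe, and served as an alternative. Groups and replicate numbers came from the labels.

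Of 33096 gene probes, 210 were removed because an array gave them a flag of 5000 or above. The normalized signal was divided by the 75th percentile of each array (6.06 and 6.88 for mock, 6.74 and 5.96 for SOX2 knockdown), floored at 0.01 and log2-transformed. A probe was kept when the S/N of either group exceeded 3 on each of its arrays, which left 21256 and dropped 11630. The study's methods use a 2-fold cutoff of replicate means without a test, and average probes by gene ID. That cutoff was applied here to single probes, and limma 3.58.1 (R 4.3.3; lmFit, eBayes, two-sided, Benjamini-Hochberg over all probes kept, no block) gave changes, SE and p-values. Of these steps, only the limma fit was tested on simulated data. Precision is limited by the 2 arrays per group.

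The members and the gene lists were chosen with earlier results of these data known. Genes named are all members, *SOX2*, the list probes over 2-fold or else the 2 with the largest absolute change, and the 3 probes most like each member over 2-fold. Further ones are said to be chosen later. Older symbols were matched through RefSeq's gene table, which named 18796 probes by accession. Alternatives covered scaling, signal column, normexp background correction (offset 50), floors (0.05, 0.001), S/N filters, flags, gene ID averaging, fold and p thresholds, variance trend, a replicate block and leaving out each array. The crossed pairing was added after seeing the data.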

Additional observations from a re-analysis of the deposited data

How the results depend on the processing

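Of 176 single-probe *FKBP* values recomputed under the alternatives, 173 moved by less than the replicate SD, and 10 had another sign, all of *FKBP2*, *FKBP5* or *FKBP1A* probe 101680. The 3 that moved more did so with normexp (*FKBP7* -0.65, *FKBP14* probe 160361 0.28, *FKBP1A* probe 101680 0.94), and probes averaged by gene ID give no single-probe value for *FKBP14* and *FKBP1A*. The count of member probes over 2-fold, 2 as reported, was 1 with quantile normalization, the assay-normalized signal, normexp, averaging by gene ID, no flag removal or a 3-fold cutoff, 4 at 1.5-fold, and 1 to 3 with an array left out (1 without mock knockdown replicate 2 or SOX2 knockdown replicate 2, 3 without SOX2 knockdown replicate 1). It was 3 with no S/N filter, by adding *FKBP11* at background. The ER-resident median of -0.79 was -0.64 with normexp and -0.88 to -0.57 with an array left out. The cytosolic median of 0.10 was 0.0056 averaged by gene ID, and -0.055 to 0.10 with an array left out, the lowest without mock knockdown replicate 1.

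Over all probes, 554 were over 2-fold. The count was 234 with normexp, 363 with a floor of 0.05, 1373 with no S/N filter, 302 with S/N over 3 on all arrays, 2234 at 1.5-fold, 119 at 3-fold, and 782 to 1192 with an array left out (1192 without mock knockdown replicate 1, 868 without mock knockdown replicate 2 and 1135 without SOX2 knockdown replicate 1). Limma called 0 probes, against 826 with median scaling, 776 with no further scaling, 758 in the authors' table, 287 with a variance trend, 5 when every array had to exceed S/N 3 and 241 at an adjusted p under 0.1, and 0 to 0 with an array left out. With median scaling, no further scaling and the authors' table, all member probes had a common SE, so those calls did not weigh each probe's own spread. The causes of the other differences were not tested.

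Replicate numbers were not used to pair the samples in the main fit. The deviations of the same-numbered arrays from their group means correlated at -0.48 over 21256 probes. Those of mock knockdown replicate 1 and SOX2 knockdown replicate 2 correlated at 0.48. With 2 arrays per group these are 1 value with opposite signs, which cannot show which arrays were prepared together. The replicate block left 0 calls. With the crossed pairing as a block, added after seeing the data, there were 0 calls too.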
